A study of Mus musculus with 63 samples.

Results

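The RNA of whole entorhino-hippocampal slice cultures was compared between wildtype cultures with an entorhinal cortex lesion (ECL) and wildtype non-lesioned controls. These libraries were chosen by their labels alone, as tissue culture input RNA of wildtype cultures, and they are 10 of the 63 libraries of the series, with 5 in each group. All came from C57BL/6J mice of either sex that carry both wildtype copies of Synpo, the gene of the actin-modulating protein synaptopodin. No cut was made in the controls. The methods do not state whether both groups were prepared and lysed together. Cultures were prepared at postnatal day 3 to 5 and kept for at least 18 days in vitro. ECL was a scalpel cut across the entorhinal cortex from the rhinal to the hippocampal fissure that severed the perforant path, and the entorhinal tissue stayed in the dish, so its RNA, that of the cut surface and that of the denervated hippocampus are all in the lysate. For each library 6 cultures were pooled by the description of the preparation, and 5 to 6 by that of the samples. The RNA was an aliquot of the cleared lysate, taken before synaptopodin was precipitated from the remainder (coIP), and was made into polyA libraries read in pairs of 150 bases. The time between lesion and lysis of these inputs is given neither in the labels nor in the methods.

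The perforant path is the main cortical input of the hippocampus. It ends on the outer dendrites of dentate granule cells and on the distal dendrites of CA3 pyramidal cells, and its section removes those synapses while the target neurons survive. Degenerating axons are known to activate microglia, which divide, take up debris and present complement receptors, and astrocytes, which enlarge and express intermediate filament proteins. Denervated neurons adjust their remaining excitatory synapses and their inhibition. A slice culture holds neurons, astrocytes, microglia and oligodendrocytes but no blood flow.

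Total counts ranged from 19844632 to 29014397 in the ECL libraries and from 20576235 to 26730691 in the controls, and 25671 to 27131 genes had at least 1 count in a library. Mitochondrially encoded mRNAs took 1.40 to 2.00% of counts after ECL and 1.69 to 1.91% in controls. Neuronal, astrocytic, microglial and oligodendrocyte markers were present in all 10 libraries, and the endothelial markers Cldn5 and Pecam1 were near 0. Myelin genes were low in replicates 1 and 2 of both groups, and Ttr and several interneuron genes were high in control replicate 1. Pools also differed in sex, since Xist and Y-linked counts showed 3 male-only pools in each group. Of 41 library measures, the smallest exact two-sided permutation p was 0.00794, the smallest that 5 against 5 allows, for the summed level of the CA3 pyramidal cell markers, which was 941 to 1168 CPM (counts relative to the library total) after ECL and 1274 to 1354 CPM in controls (adjusted p = 0.177, the smallest of the 41). Abundant members weigh most in such a sum, and by edgeR 0 of the 10 members tested were called (median log2 fold change -0.07). Control inputs also lay above the dissected CA3 libraries in this sum (870 to 1129 CPM). Of the dissected libraries set beside the inputs further on, the library labelled DG ECL replicate 5 stood apart in its region markers. Its granule cell markers summed to 134 CPM against 773 to 1041 CPM in the other 10 DG (dentate gyrus) libraries, and its CA3 markers to 992 CPM against 382 to 534 CPM. CA3 libraries had 145 to 189 CPM and 870 to 1129 CPM, so its markers went against its label. The main counts that rest on it are given with and without it. For some single genes only the value with it is given, or whether the call held. DG ECL replicates 1 and 3 also stood apart, in choroid plexus and ependymal genes. These summed to 2765 and 7002 CPM there, against 69.5 to 145 CPM in the other DG libraries, controls included. In the inputs, Synpo did not pass the test, with a log2 fold change of 0.05 ± 0.12 (SE) and an adjusted p of 0.877.

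Lesioned cultures differed from controls at 1007 of 17951 genes tested (5.61%), of which 439 were higher (2.45%) and 568 lower (3.16%) after ECL at an adjusted p under 0.05. Values are given as normalized counts, the counts of a gene scaled to a common library size, and fold changes are ECL against control on the log2 scale from the edgeR fit, with the SE and an adjusted p over all 17951 genes. The genes that rose included dividing-cell, microglial and interferon-stimulated genes, and the genes that fell included synaptic, interneuron, cholesterol synthesis and glycolytic genes. Median absolute changes were 0.70 for genes that rose and 0.66 for genes that fell, so most differences were below 2-fold, which 104 of the 439 and 119 of the 568 reached. The ECL and control ranges did not overlap for 337 of the 439 and 328 of the 568, against 3.09% of all genes for separation upward and 2.89% for separation downward. The libraries are pools of whole cultures, so fewer cells of a type and less RNA per cell cannot be told apart.

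**Figure D1:**
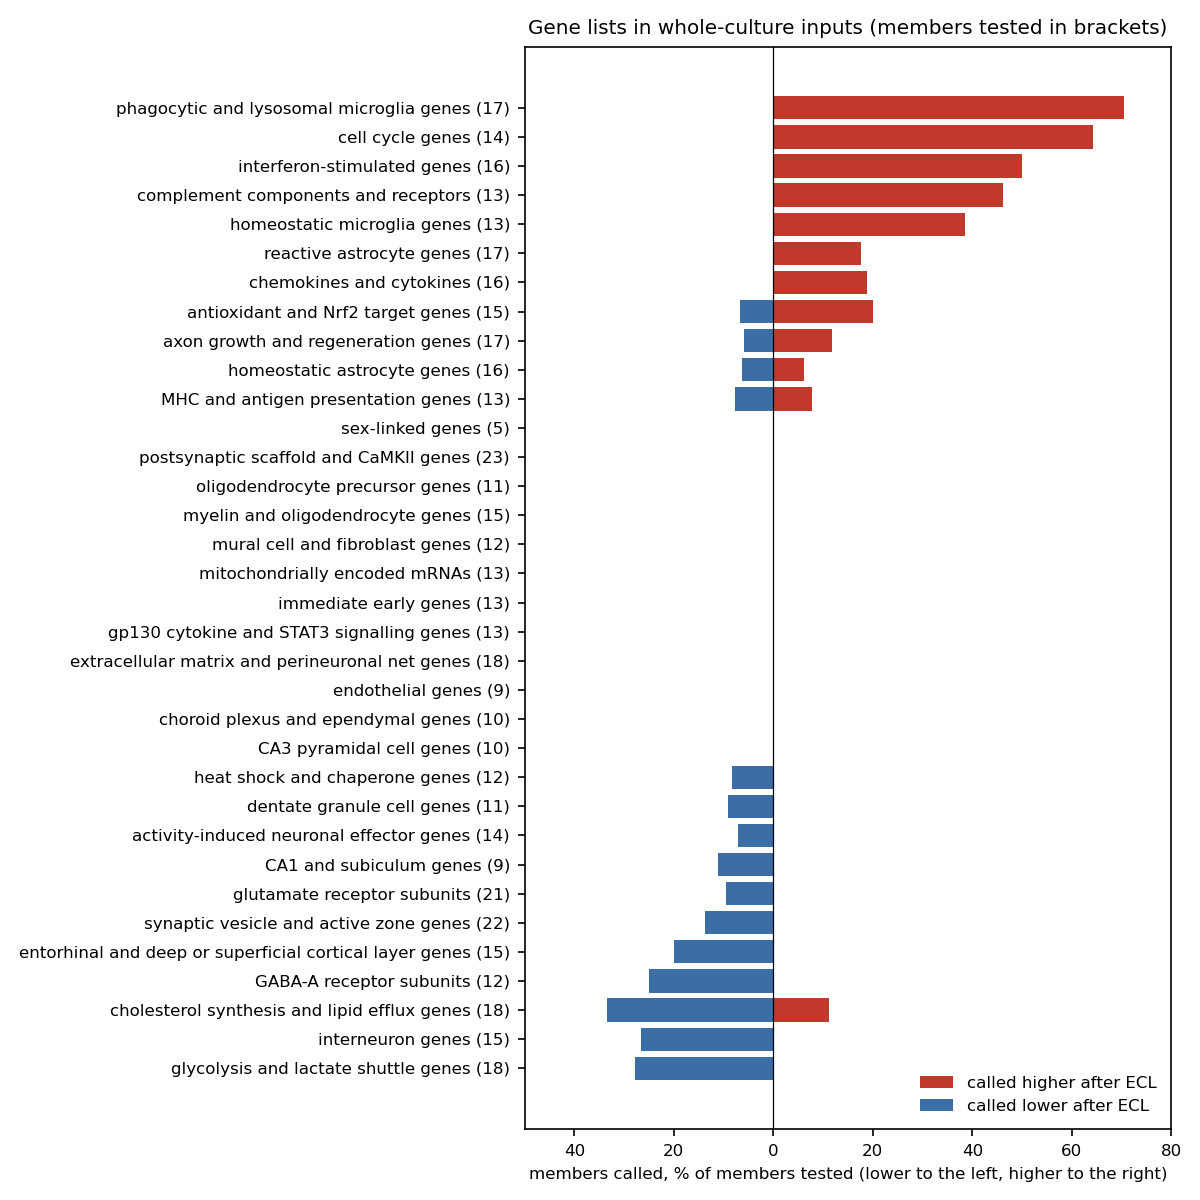
Share of the tested members of each of 34 gene lists that were called higher (red, to the right) or lower (blue, to the left) after ECL in the whole-culture inputs, in percent of members tested, with that number in brackets. The phagocytic microglia (12 of 17) and cell cycle (9 of 14) lists reach farthest to the right, against 2.45% of all genes called higher and 3.16% called lower.

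Genes of cell division rose after ECL. Among 14 cell cycle genes, 9 passed as higher and 0 as lower, and the median log2 fold change was 0.87 beside -0.003 over all genes. The called members were Mki67, Top2a, Cdk1, Ccnb1, Ccna2, Mcm3, Mcm5, Birc5 and Rrm2. Promoter sequences of 4 dividing-cell genes that rose are shown, because cell cycle promoters are known to carry CCAAT boxes, the binding motif of the factor NF-Y. Each is the 250 bases before the RefSeq start in GRCm38.p6, 5′ to 3′ on the gene's strand (minus for all 4), with CCAAT, or its reverse complement ATTGG, in capitals.
Ccnb1, chr13:100786487-100786736: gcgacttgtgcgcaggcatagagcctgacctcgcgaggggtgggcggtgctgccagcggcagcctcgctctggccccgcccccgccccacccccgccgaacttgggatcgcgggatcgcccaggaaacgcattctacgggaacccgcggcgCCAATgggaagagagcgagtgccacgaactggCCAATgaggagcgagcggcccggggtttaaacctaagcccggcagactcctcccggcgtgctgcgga
Ccnb2, chr9:70421555-70421804: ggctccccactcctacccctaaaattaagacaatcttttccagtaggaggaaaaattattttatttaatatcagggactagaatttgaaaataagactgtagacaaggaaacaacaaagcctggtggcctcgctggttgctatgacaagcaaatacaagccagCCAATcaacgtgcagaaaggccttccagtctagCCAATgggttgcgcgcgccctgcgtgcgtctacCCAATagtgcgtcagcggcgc
Top2a, chr11:99024190-99024439: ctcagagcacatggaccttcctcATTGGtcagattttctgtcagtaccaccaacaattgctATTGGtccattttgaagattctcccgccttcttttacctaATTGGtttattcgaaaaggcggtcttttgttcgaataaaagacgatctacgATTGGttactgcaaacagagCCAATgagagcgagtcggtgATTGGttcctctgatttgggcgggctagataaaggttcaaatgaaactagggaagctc
Cdk1, chr10:69352913-69353162: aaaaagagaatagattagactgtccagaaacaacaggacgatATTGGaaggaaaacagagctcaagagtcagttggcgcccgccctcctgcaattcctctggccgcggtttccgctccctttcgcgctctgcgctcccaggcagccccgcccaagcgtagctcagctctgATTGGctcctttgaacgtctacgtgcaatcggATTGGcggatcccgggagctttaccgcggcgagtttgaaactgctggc

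CCAAT, searched on both strands, occurred 2 times before Ccnb1, 3 times before Ccnb2, 6 times before Top2a and 3 times before Cdk1. Over the list, 12 of 14 genes matched a RefSeq promoter and 10 of these 12 (83.3%) held CCAAT in the 250 bases, as did 37.5% of the promoters of all 27025 matched symbols. Of the 8 called members with a promoter, 7 held it. TTTGAA, the core of the cell cycle homology region, occurred in 4 of the 12 (33.3%) and in 18.3% of all promoters. These are letter matches in a fixed window and binding was not measured.

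Ccnb1, at chr13:100778650-100786570 on the minus strand in GENCODE M25, encodes cyclin B1, the partner of Cdk1 at entry into mitosis. The GENCODE start lies upstream of the RefSeq start used for the promoter. Part of the printed bases, with the CCAAT nearer to the RefSeq start, therefore falls within the GENCODE gene. Normalized counts of Ccnb1 were 904, 632, 441, 498 and 397 in ECL libraries 1 to 5 and 48.1, 73.2, 115, 104 and 80.1 in control libraries 1 to 5. Every lesioned pool stood above every control, and the log2 fold change of 2.78 ± 0.25 (SE, adjusted p = 0.000143) was the largest among the genes named by rule that rose. Ccnb2, the second mitotic cyclin B, had 439, 290.0, 233, 224 and 269 in ECL libraries 1 to 5 and 53.7, 46, 67.8, 70.6 and 57.5 in control libraries 1 to 5. The groups were again apart, with a log2 fold change of 2.30 ± 0.20 (adjusted p = 0.000143). Normalized counts of Top2a, the topoisomerase that untangles replicated chromosomes, were 1269, 739, 675, 525 and 642 in ECL libraries 1 to 5 and 123, 223, 266, 188 and 255 in control libraries 1 to 5. Counts of Mki67, the gene of the proliferation antigen Ki-67, were 551, 484, 320.5, 280.3 and 379 in ECL libraries 1 to 5 and 93.3, 142, 153, 149 and 139 in control libraries 1 to 5. Both sets of controls lay below both sets of lesioned pools, and the log2 fold changes were 1.87 ± 0.24 for Top2a (adjusted p = 0.000853) and 1.58 ± 0.19 for Mki67 (adjusted p = 0.00068).

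Changes differed in size within the list. Rrm2, a subunit of the enzyme that makes deoxynucleotides, changed by 1.43 ± 0.23 (adjusted p = 0.00353) and Birc5, the survivin gene that acts at the mitotic centromere, by 2.02 ± 0.25 (adjusted p = 0.000742), and neither overlapped between groups. The replication helicase subunits Mcm3 (0.87 ± 0.20) and Mcm5 (0.84 ± 0.20) rose less. Pcna, the sliding clamp of DNA polymerase, and Ccnd1, the cyclin of early G1, did not pass the test. Normalized counts of Pcna were 3139 to 3607 in ECL and 2887 to 3582 in control libraries (log2 fold change 0.11 ± 0.07, adjusted p = 0.478), and those of Ccnd1 were 1781 to 2599 in ECL and 2458 to 2954 in control libraries (-0.22 ± 0.10, adjusted p = 0.223). Other dividing-cell genes named by p or by size were Spc25 (1.57 ± 0.16) and Nuf2 (1.89 ± 0.24) of the kinetochore, Tpx2 (1.79 ± 0.20) of the spindle, Cenpf (1.90 ± 0.20) of the centromere, the kinesin Kif20a (1.80 ± 0.21), the mitotic kinases Pbk (2.41 ± 0.26) and Plk1 (2.02 ± 0.31), and the histone chaperone Asf1b (1.20 ± 0.12). Each of these 8 had no overlap between groups, and each was called with any 1 of the 10 libraries left out. Both are favoured by the choice of these genes by p or size in the same libraries.

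ECL replicate 1 held the highest count for Ccnb1, Top2a, Mki67, Cdk1, Birc5 and Rrm2, and the other lesioned pools were still above all controls for each of the 6. Between 6 and 9 of the 14 cell cycle genes were called with any 1 library left out. With replicates 1 and 2 of both groups left out, a comparison of 3 against 3 that was chosen after seeing the data, 7 of 14 were called and the median was 0.62. Ccna2 and Mcm5 were then not called.

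**Figure D2:**
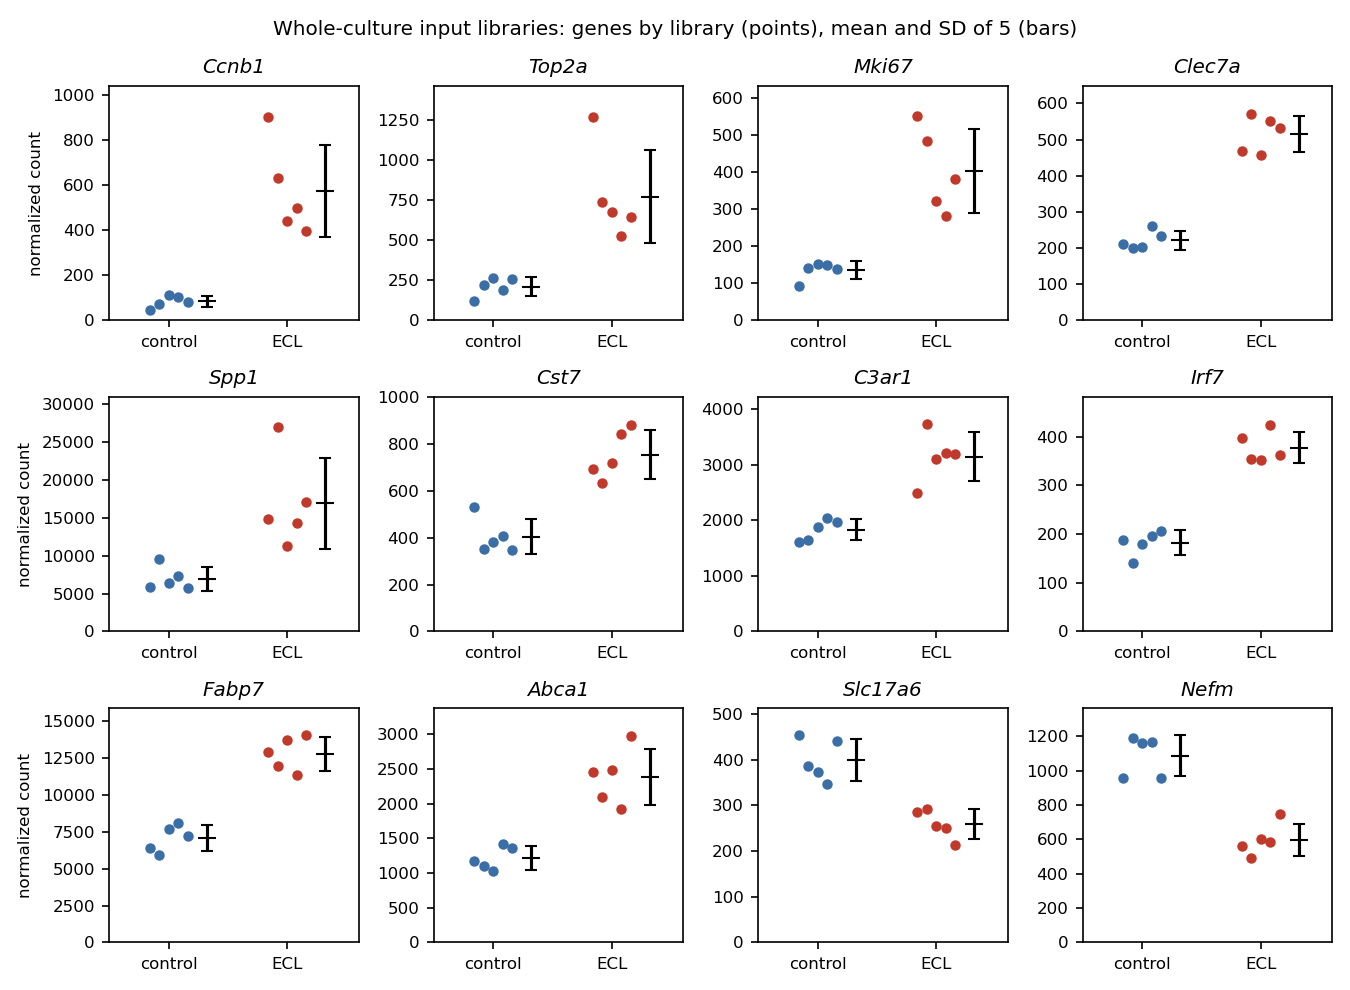
Normalized counts of 12 genes in each input library (points, replicates 1 to 5 from left to right within a group) with the mean and SD of 5 (bars), on linear axes from 0, for control (blue) and ECL (red). In all 12 panels the control and ECL points do not overlap. Slc17a6 and Nefm are lower after ECL and the other 10 are higher, with Ccnb1 at 397 to 904 after ECL and 48.1 to 115 in controls.

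Microglial genes that were called after ECL were higher. Among 17 phagocytic and lysosomal microglia genes, 12 passed as higher and 0 as lower (median 0.56). Clec7a, the pattern receptor dectin-1 of phagocytes, had normalized counts of 469, 570.4, 458, 551 and 533 in ECL libraries 1 to 5 and 211, 199, 203, 260.0 and 232 in control libraries 1 to 5. The lowest lesioned pool was above the highest control, and the log2 fold change was 1.22 ± 0.11 (adjusted p = 0.000143). Spp1, the secreted matrix protein osteopontin, had 14868, 27070, 11222, 14280 and 17068 in ECL libraries 1 to 5 and 5883, 9616, 6421, 7277 and 5745 in control libraries 1 to 5. ECL replicate 2 was far above the rest of its group and control replicate 2 the highest control, and the log2 fold change was 1.27 ± 0.20 (adjusted p = 0.00353). Cst7, an inhibitor of lysosomal cysteine proteases, had 691, 634, 718, 843 and 882 in ECL libraries 1 to 5 and 529.6, 352, 383, 407 and 346 in control libraries 1 to 5. The gap between groups was narrower here, with control replicate 1 high (0.90 ± 0.13, adjusted p = 0.00212).

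The other called members were the macrophage scavenger protein gene Cd68 (0.72 ± 0.11), the lectin gene Lgals3 (0.79 ± 0.17), lysozyme gene Lyz2 (0.81 ± 0.15), the adaptor gene Tyrobp (0.61 ± 0.11), lipoprotein lipase gene Lpl (0.46 ± 0.10), the tetraspanin gene Cd63 (0.50 ± 0.11) and the cathepsin genes Ctsb (0.43 ± 0.07), Ctsd (0.56 ± 0.09) and Ctsz (0.74 ± 0.10). Trem2, the lipid receptor that signals through Tyrobp, had counts of 1582 to 2753 in ECL and 1481 to 1868 in control libraries and did not pass (0.41 ± 0.12, adjusted p = 0.061), nor did Axl, a receptor for dying cells (0.36 ± 0.14, adjusted p = 0.172). Among the genes of smallest p outside the list were Plek (0.95 ± 0.10), the gene of pleckstrin in leukocytes, the immune cell surface gene Cd84 (0.85 ± 0.10), the scavenger receptor gene Msr1 (1.16 ± 0.13) and Tmem106a (1.07 ± 0.12). These 4 had no overlap between groups, which their choice by p favours.

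Homeostatic microglia genes had the same sign. All 13 tested had a positive log2 fold change (median 0.57), and 5 were called higher, namely Sall1 (0.94 ± 0.16), a transcription factor of microglial identity, Gpr34 (0.74 ± 0.19), Olfml3 (0.76 ± 0.14), Fcrls (0.74 ± 0.16) and Aif1 (0.83 ± 0.16), the gene of the microglial protein Iba1. Normalized counts of Aif1 were 974, 1296, 1468, 1375 and 1774 in ECL libraries 1 to 5 and 623, 574, 906, 948 and 813 in control libraries 1 to 5. Lesioned pools were all above the controls, with replicates 1 and 2 the lowest controls. Csf1r, the receptor for the microglial growth factor, had 1284, 1219, 2101, 2082 and 1652 in ECL libraries 1 to 5 and 650.2, 707, 1485, 1419 and 1746 in control libraries 1 to 5 and the ranges overlapped (0.47 ± 0.25, adjusted p = 0.334). Replicates 1 and 2 were the lowest of both groups for Csf1r and P2ry12, a purine receptor of resting microglia (0.57 ± 0.23, adjusted p = 0.19). The summed level of the 13 genes was 774 to 1362 CPM after ECL and 572 to 925 CPM in controls.

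Complement genes rose in their receptors and in the first component. Of 13 tested, 6 were called higher and 0 lower (median 0.47), and these were C1qa (0.76 ± 0.15) and C1qb (0.55 ± 0.15), chains of the initiating protein C1q, the anaphylatoxin receptor genes C3ar1 (0.78 ± 0.10) and C5ar1 (0.55 ± 0.11), and Itgam (0.91 ± 0.20) and Itgb2 (0.82 ± 0.13), which form complement receptor 3. Normalized counts of C3ar1 were 2488, 3729, 3109, 3202 and 3186 in ECL libraries 1 to 5 and 1615, 1648, 1871, 2037 and 1973 in control libraries 1 to 5. The groups did not overlap (adjusted p = 0.00105). C3, the central component, had 309.6 to 852 in ECL and 271 to 629.5 in control libraries and was not called (0.06 ± 0.27, adjusted p = 0.934). C1qc, the third C1q chain, was not called either (0.44 ± 0.21, adjusted p = 0.272).

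With any 1 library left out, 10 to 14 phagocytic, 3 to 5 homeostatic and 5 to 6 complement genes were called. The homeostatic count was 3 without ECL replicate 3 or without control replicate 2. C1qb and Gpr34 were each called in 3 of these 10 fits, with adjusted p up to 0.122 and 0.104 in the others. Without replicates 1 and 2 of both groups, 10 phagocytic, 6 homeostatic and 5 complement genes were called.

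Interferon-stimulated genes shared a direction. All 16 tested had a positive log2 fold change (median 0.55), and 8 were called higher and 0 lower, among them Irf7, Isg15, Bst2, Ifit2, Oasl2, Usp18 and Lgals3bp. Irf7, the factor that amplifies the type I interferon response, had normalized counts of 397, 355, 351, 423 and 362 in ECL libraries 1 to 5 and 188, 139.9, 179, 197 and 206 in control libraries 1 to 5. The lesioned pools lay in a narrow band above all controls (1.06 ± 0.12, adjusted p = 0.000437). Normalized counts of Bst2, the antiviral protein tetherin, were 763, 771, 666, 542 and 827 in ECL libraries 1 to 5 and 470.3, 466, 356, 456 and 408 in control libraries 1 to 5. This was again a separation of all 5 from all 5 (0.73 ± 0.12, adjusted p = 0.0042). Isg15, a ubiquitin-like modifier, had 309, 501, 221, 375 and 447 in ECL libraries 1 to 5 and 270.5, 123, 170.5, 201 and 192 in control libraries 1 to 5. Here control replicate 1 lay above ECL replicate 3 (0.95 ± 0.22, adjusted p = 0.0243), and the call was lost without ECL replicate 2, control replicate 2 or control replicate 3.

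Promoters of Isg15 and Bst2 are shown for the interferon-stimulated response element, the motif by which interferon-activated factors are known to bind. Capitals mark matches to GAAA, then 2 bases of any kind, then GAAA, searched on both strands with overlapping matches counted, in the 250 bases before the RefSeq start (GRCm38.p6, minus strand).
Isg15, chr4:156200819-156201068: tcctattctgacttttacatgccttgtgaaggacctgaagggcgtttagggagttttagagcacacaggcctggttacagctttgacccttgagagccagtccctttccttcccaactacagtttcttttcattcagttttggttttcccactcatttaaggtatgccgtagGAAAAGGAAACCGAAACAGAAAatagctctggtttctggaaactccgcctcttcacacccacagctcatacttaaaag
Bst2, chr8:71537473-71537722: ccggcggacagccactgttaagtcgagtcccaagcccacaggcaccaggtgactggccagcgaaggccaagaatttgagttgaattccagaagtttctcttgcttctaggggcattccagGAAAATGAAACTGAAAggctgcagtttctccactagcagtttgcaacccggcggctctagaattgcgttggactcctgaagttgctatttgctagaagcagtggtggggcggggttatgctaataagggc

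This motif occurred 3 times in overlap before Isg15 and 2 times in overlap before Bst2. Of the 12 interferon list members with a matched promoter, 7 (58.3%) held it, as did 3.46% of all promoters. Of the 6 called members with a promoter, 2 held it. With control replicate 2 left out 5 of the 16 genes were called, and 3 were called without replicates 1 and 2 of both groups (Irf7, Oasl2 and Lgals3bp).

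Antigen presentation genes did not share a direction. Of 13 tested, 1 was called higher and 1 lower. B2m, the light chain of MHC class I, had 10349 to 14420 in ECL and 7177 to 8662 in control libraries and rose (0.62 ± 0.09, adjusted p = 0.00215). H2-Ab1, an MHC class II chain, had 455, 556, 509, 742 and 649 in ECL libraries 1 to 5 and 1292, 1017, 815, 877 and 927 in control libraries 1 to 5. It was lower in all lesioned pools (-0.76 ± 0.15, adjusted p = 0.00948). Of 16 chemokine and cytokine genes tested, 3 were called higher and 0 lower (median 0.18). Ccl5, a chemokine for T cells and monocytes, had 266, 318, 257, 365 and 506 in ECL libraries 1 to 5 and 199.8, 99.5, 109, 161 and 123 in control libraries 1 to 5 and showed the largest change of the 3 (1.30 ± 0.22, adjusted p = 0.00453). Ccl4 (0.86 ± 0.17) and Ccl9 (0.87 ± 0.15) also rose without overlap. Of 13 genes of the gp130 cytokine and STAT3 pathway, 0 were called in either direction by edgeR or DESeq2 (median 0.06, with 1 higher and 2 lower at an unadjusted p under 0.05).

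Some reactive astrocyte genes rose. Of 17 reactive astrocyte genes tested, 3 were called higher and 0 lower (median 0.39). Gfap, the main intermediate filament of astrocytes, had normalized counts of 528713, 432283, 550825, 374035 and 479480 in ECL libraries 1 to 5 and 242625, 333008, 320029, 386321 and 377133 in control libraries 1 to 5. ECL replicate 4 was below 2 of the 5 controls, and the log2 fold change was 0.51 ± 0.13 (adjusted p = 0.0364), a call kept in 4 of the 10 fits with 1 library left out. Vim, the filament protein vimentin, had 5804 to 8828 in ECL and 4483 to 5345 in control libraries (0.55 ± 0.10, adjusted p = 0.00872), and Cryab, a small heat shock protein, had 8045 to 9872 in ECL and 5933 to 7080 in control libraries (0.41 ± 0.08, adjusted p = 0.00949). Serpina3n, a protease inhibitor of reactive astrocytes, was not called (0.39 ± 0.13, adjusted p = 0.1). Fabp7, a fatty acid binding protein of radial glia and astrocytes, was among the smallest p-values, with 12909, 11969, 13729, 11320 and 14037 in ECL libraries 1 to 5 and 6428, 5919, 7666, 8083 and 7191 in control libraries 1 to 5. All lesioned pools were above all controls (0.86 ± 0.09, adjusted p = 0.000391).

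Of 16 homeostatic astrocyte genes, the potassium channel gene Kcnj10 was called higher (0.54 ± 0.13) and the sodium pump subunit gene Atp1b2 lower (-0.62 ± 0.16), with overlap in both. The 11 oligodendrocyte precursor genes all had positive log2 fold changes (median 0.48), but 0 of them were called by edgeR or DESeq2 and 2 were higher at an unadjusted p under 0.05. Of 15 myelin genes 0 were called by edgeR or DESeq2 and 0 reached an unadjusted p under 0.05 (median 0.11). Their summed level ran from 2615 to 6514 CPM after ECL and from 2569 to 6183 CPM in controls. By edgeR and by DESeq2 alike, 0 members were called among 9 endothelial genes (1 lower at an unadjusted p under 0.05), 12 mural and fibroblast genes (1 higher), 10 choroid and ependymal genes (1 higher, 1 lower), 13 mitochondrially encoded genes (1 higher) and 5 sex-linked genes (0). Of 18 extracellular matrix genes edgeR called 0 (3 higher and 1 lower at an unadjusted p under 0.05) and DESeq2 called Timp1, a protease inhibitor gene, higher and the link protein gene Hapln1 lower.

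Lipid genes were called in both directions. Of 18 lipid genes tested, 2 were called higher and 6 lower (median -0.36). Abca1, the pump that exports cholesterol to apolipoproteins, had normalized counts of 2461, 2096, 2487, 1924 and 2976 in ECL libraries 1 to 5 and 1175, 1099, 1032, 1418 and 1367 in control libraries 1 to 5. The groups did not overlap (0.97 ± 0.12, adjusted p = 0.000742), and Abcg1, its partner, rose by less (0.36 ± 0.09, adjusted p = 0.0373). Fdft1, the squalene synthase gene, had 2802, 3162, 3437, 2795 and 3324 in ECL libraries 1 to 5 and 5458, 5352, 4100, 3638 and 4048 in control libraries 1 to 5. All lesioned pools lay below all controls (-0.54 ± 0.11, adjusted p = 0.0155). The synthesis genes Hmgcs1 (-0.37 ± 0.10) and Sqle (-0.47 ± 0.11) also fell, as did Srebf2 (-0.52 ± 0.12), the factor that drives them. The count of 6 was 0 without control replicate 2, 1 without ECL replicate 2 and 2 without ECL replicate 1, and it was 0 without replicates 1 and 2 of both groups. Abcg1 was called in 1 of the 10 fits with a library left out, and Abca1 in all 10.

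Neuronal genes that changed were mostly lower. Of 12 GABA-A receptor subunits tested, 3 were called lower and 0 higher (median -0.11). Gabrg3 had 262 to 338 in ECL and 351 to 442 in control libraries (-0.46 ± 0.11, adjusted p = 0.0264), and Gabrd, the δ subunit of extrasynaptic receptors, had 72.7, 112, 57.4, 58.6 and 68.7 in ECL libraries 1 to 5 and 184, 195, 97.6, 114 and 121 in control libraries 1 to 5. ECL replicate 2 overlapped the controls for Gabrd (-0.94 ± 0.24, adjusted p = 0.0336). Neither Gabrg3 nor Gabrd was called without ECL replicate 1, ECL replicate 3 or control replicate 2, or without replicates 1 and 2 of both groups.

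Interneuron genes called after ECL were lower, and control replicates 1 and 2 stood above the other controls for Crhbp, Sst and Npy. All 15 tested had a negative log2 fold change (median -0.52), and 4 were called lower. These were the neuropeptide genes Vip (-0.57 ± 0.15) and Cort (-2.17 ± 0.55), Crhbp (-1.37 ± 0.36), which binds corticotropin-releasing hormone, and Reln (-0.51 ± 0.14), the extracellular protein reelin. Normalized counts of Crhbp were 3425, 1767, 2015, 2342 and 2358 in ECL libraries 1 to 5 and 13839, 6937, 3163, 3464 and 3378 in control libraries 1 to 5. Controls 1 and 2 were the highest of the 10 and the other controls overlapped ECL replicate 1. Sst, the gene of somatostatin, had 8817, 6740, 7930, 8390 and 8549 in ECL libraries 1 to 5 and 22292, 12444, 9817, 11167 and 8995 in control libraries 1 to 5 and did not pass (-0.68 ± 0.20, adjusted p = 0.0601), nor did Npy, the gene of neuropeptide Y (-1.06 ± 0.47, adjusted p = 0.221), with 8448, 3982, 3624, 4427 and 5399 in ECL libraries 1 to 5 and 28947, 11262, 4313, 5374 and 4081 in control libraries 1 to 5. With 1 library left out, 0 to 5 of the 15 were called, 2 without control replicate 1 or 4, 1 without ECL replicate 5 and 0 without control replicate 2 or ECL replicate 2, 3 or 4. With replicates 1 and 2 of both groups left out the median was -0.43 and 2 were called. Control replicate 1 was also high in the choroid plexus gene Ttr, and the part of tissue differences between pools in the interneuron result was not tested.

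Of 22 synaptic vesicle and active zone genes tested, 3 were called lower and 0 higher (median -0.20), and 1 of the 22 had a positive log2 fold change. Syn1, the vesicle-tethering protein synapsin I, had 926, 1005, 957, 1042 and 1216 in ECL libraries 1 to 5 and 1652, 2155, 1729, 1687 and 1274 in control libraries 1 to 5. Lesioned pools were below all controls (-0.72 ± 0.12, adjusted p = 0.00426). Slc17a6, the vesicular glutamate transporter VGLUT2, had 285, 293, 255, 249.8 and 212 in ECL libraries 1 to 5 and 454, 386, 374, 346 and 441 in control libraries 1 to 5. The highest lesioned pool was below the lowest control (-0.63 ± 0.12, adjusted p = 0.00865), and Slc17a6 was called under each single-library omission and without replicates 1 and 2 (log2 fold change -0.70, adjusted p = 0.0474). Rab3a, the vesicle GTPase, had the largest change of the 3 (-1.35 ± 0.20, adjusted p = 0.00229). Nefm, the axonal neurofilament subunit, had 559, 491, 599.6, 586 and 745 in ECL libraries 1 to 5 and 959, 1190, 1158, 1169 and 955 in control libraries 1 to 5. No lesioned pool reached a control (-0.87 ± 0.11, adjusted p = 0.000929). Akap5, which anchors kinases at the postsynapse, fell by less (-0.45 ± 0.07, adjusted p = 0.00353), and so did Sncb, the gene of β-synuclein in presynaptic terminals (-0.57 ± 0.09, adjusted p = 0.00354).

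Glutamate receptor genes were called lower in 2 cases and postsynaptic scaffold genes in 0, beside 3.16% of all genes called lower. Of 21 glutamate receptor subunits, Grin1, the obligatory NMDA receptor subunit (-0.71 ± 0.15, adjusted p = 0.0153), and Grm2, a presynaptic metabotropic receptor (-0.68 ± 0.17, adjusted p = 0.0332), were called lower, and 0 were called higher (median -0.06). Neither was called without control replicate 2. Of 23 postsynaptic scaffold and CaMKII genes 0 were called by edgeR or DESeq2 (median -0.10, 3 lower at an unadjusted p under 0.05). Of 10 CA3 pyramidal cell genes edgeR called 0 (median -0.07, 1 higher and 2 lower at an unadjusted p under 0.05) and DESeq2 called 1, Bok, lower. Of 11 dentate granule cell genes, Calb1, the calcium buffer calbindin, was called lower (-0.53 ± 0.11, adjusted p = 0.0139).

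Of 15 entorhinal and cortical layer genes, 3 were called lower and 0 higher (median -0.01). Nr4a2, an orphan nuclear receptor of deep cortical layers that is also induced by activity, had 683, 616, 481, 653 and 648 in ECL libraries 1 to 5 and 932, 890.2, 951, 880.3 and 836 in control libraries 1 to 5. All lesioned pools were below all controls (-0.54 ± 0.10, adjusted p = 0.00675). It was also the 1 member called among 9 CA1 and subiculum genes. Lef1, a Wnt pathway factor, had 83.8, 42.8, 71.2, 49.3 and 82 in ECL libraries 1 to 5 and 102, 122, 115, 105 and 144 in control libraries 1 to 5 and no overlap (-0.83 ± 0.20, adjusted p = 0.0297), and Reln is listed with the interneurons too. The entorhinal count was 1 without ECL replicate 2, 3 or 4, control replicate 2 or control replicate 5. Of 17 axon growth genes, the developmental factor gene Sox11 (0.32 ± 0.08) and the tubulin gene Tubb6 (0.53 ± 0.12) were called higher and the neuronal tubulin gene Tubb3 lower (-0.47 ± 0.12). With 1 library left out Sox11 was called in 7 of 10 fits, Tubb6 in 8 and Tubb3 in 3. None of the 3 was called without control replicate 2 or ECL replicate 2, nor without replicates 1 and 2 of both groups.

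Immediate early genes, which neurons switch on within minutes of activity, passed the test in neither direction in the whole cultures. Of 13 tested, 0 were called by edgeR (median -0.23), with 0 higher and 4 lower at an unadjusted p under 0.05, and DESeq2 called 2 lower, Fosl2 and Jund. Fos had 997, 708, 933, 896 and 790.4 in ECL libraries 1 to 5 and 1478, 1053, 896, 791 and 838 in control libraries 1 to 5. The lesioned pools lay within the range of the controls or below it (-0.23 ± 0.16, adjusted p = 0.469). Egr1 had 381, 413, 285, 303 and 394 in ECL libraries 1 to 5 and 433, 324, 356, 354 and 277 in control libraries 1 to 5 and the groups overlapped fully (0.03 ± 0.14, adjusted p = 0.946). Arc, which controls AMPA receptor endocytosis, had 152, 132, 83.8, 102 and 62.5 in ECL libraries 1 to 5 and 78.2, 74.2, 37, 66.5 and 156 in control libraries 1 to 5 (0.38 ± 0.32, adjusted p = 0.574). Of 14 activity-induced effector genes 1 was called, the tachykinin gene Tac1 (-0.81 ± 0.21), which was lower. Bdnf, the neurotrophin of this list, had 2442, 1735, 1239, 1474 and 1482 in ECL libraries 1 to 5 and 7996, 3797, 1593, 1692 and 1674 in control libraries 1 to 5. Controls 1 and 2 were the highest and the other 3 overlapped the lesioned pools (adjusted p = 0.164).

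The dissected dentate gyrus (DG) of wildtype cultures gave other values for these genes. Libraries labelled DG (7 ECL, 4 control) were each made from the region cut out of a single culture rather than from a lysate of a pool, and were fitted alone. They include DG ECL replicate 5, whose markers were near those of CA3 libraries. In that fit 1864 of 23720 genes were called higher (7.86%) and 1022 lower (4.31%), and 9 of 16 immediate early genes were called higher, with a median of 1.13. Without DG ECL replicate 5 the counts were 1998 higher and 1252 lower, with 9 of the 16 still called and a median of 1.09. The log2 fold change in DG was 1.61 ± 0.27 for Fos, 1.79 ± 0.27 for Egr1, 3.22 ± 0.44 for Egr2 and 2.90 ± 0.48 for Arc, and without that library 1.64 ± 0.25, 1.74 ± 0.26, 3.25 ± 0.42 and 2.52 ± 0.36. The difference between both effects was tested directly as an interaction, inputs minus DG, in which 155 of 25631 genes were called with a higher effect in inputs (0.605%) and 900 with a lower one (3.51%), 4.12% in all. It called 8 of the 16 immediate early genes, all lower in inputs, namely Fos, Junb, Egr1, Egr2, Arc, Ier2, Nr4a1 and Btg2. The interaction was -1.84 ± 0.32 for Fos (adjusted p = 0.00754), -1.78 ± 0.32 for Egr1 (adjusted p = 0.00829) and -2.52 ± 0.60 for Arc (adjusted p = 0.0214). Without DG ECL replicate 5, 184 genes were called higher and 623 lower, the same 8 immediate early genes among them, with -1.85 ± 0.31 for Fos (adjusted p = 0.00693), -1.69 ± 0.31 for Egr1 (adjusted p = 0.0106) and -2.11 ± 0.51 for Arc (adjusted p = 0.025). In CA3 (3 ECL, 2 control) 1 of 16 was called, Btg2, which was higher. Tissue, dissection and preparation differ together between inputs and DG and cannot be told apart. The time between lesion and lysis is not given for the inputs, so whether it matched that of the dissected libraries was not tested. Sex also differed within the dissected sets. Y-linked counts without Xist were found in 3 of 7 DG ECL libraries and 0 of 4 DG controls, and in 2 of 3 CA3 ECL libraries and 0 of 2 CA3 controls. Among DG libraries without Y-linked counts, with replicate 5 also left out (3 ECL, 4 control, chosen after seeing the data), 1632 genes were called higher and 578 lower, with 8 of 16 immediate early genes higher. This set also lacks DG ECL replicates 1 and 3, whose choroid plexus genes were high, and no other fit left them out. Fos changed by 1.59 ± 0.16 and Arc by 2.87 ± 0.35 in that fit, and CA3 holds only 1 such ECL library, so no fit was made there.

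**Figure D3:**
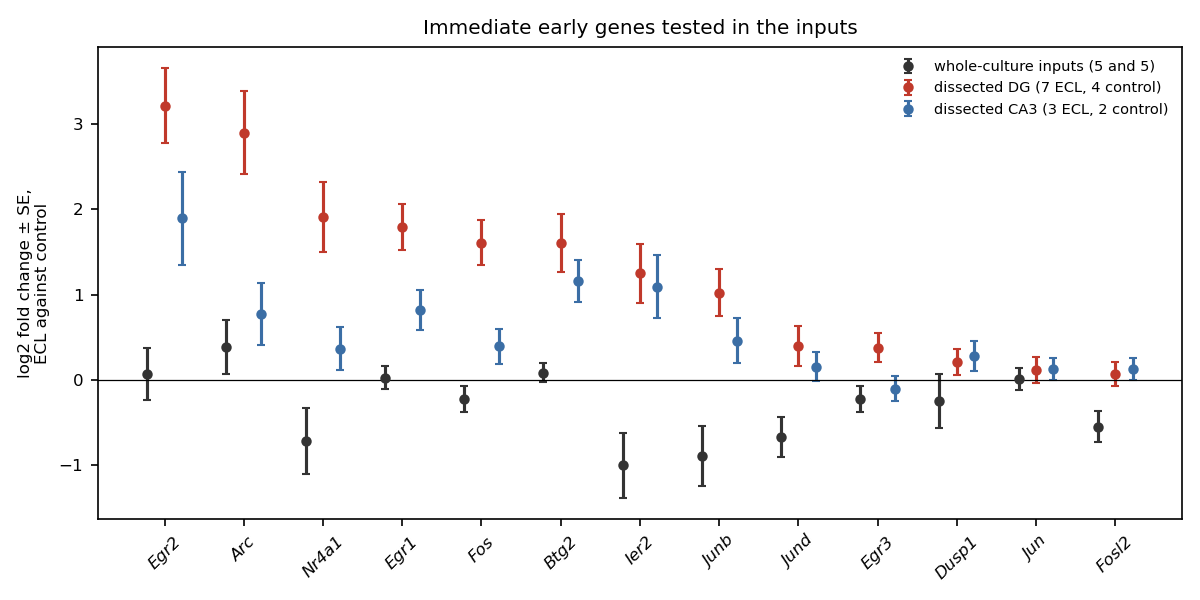
Log2 fold change ± SE (ECL against control) of the 13 immediate early genes tested in the inputs (black, 5 and 5 libraries), in the libraries labelled dissected DG (red, 7 and 4, with ECL replicate 5 of CA3-like markers included) and in dissected CA3 (blue, 3 and 2), ordered by the DG value. For Fos, Egr1, Egr2 and Arc the DG values are 1.61 to 3.22 and the input values -0.23 to 0.38.

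A group of genes fell after ECL with a marked spread between lesioned pools. Of 18 glycolysis and lactate shuttle genes, 5 were called lower and 0 higher (median -0.27). Without a single library the count was 1 to 6, with 1 without ECL replicate 3 or control replicate 2, 2 without ECL replicate 2 and 3 without ECL replicate 5 or control replicate 3 or 4. The called genes were Gapdh (-0.27 ± 0.07), Pgk1 (-0.38 ± 0.10), Pgam1 (-0.67 ± 0.11), Ldha (-0.36 ± 0.08) and Bsg. Bsg, at chr10:79704491-79711969 on the plus strand, encodes basigin, the chaperone of lactate transporters. Normalized counts of Bsg were 4886, 3466, 5194, 10183 and 17059 in ECL libraries 1 to 5 and 27975, 29627, 22468, 22506 and 16581 in control libraries 1 to 5. ECL replicates 1 to 3 were far below the controls, whereas ECL replicate 5 stood above control replicate 5 (-1.55 ± 0.35, adjusted p = 0.0197). Rpl13, a ribosomal protein gene, had 424, 363, 420.4, 1230 and 2610 in ECL libraries 1 to 5 and 3454, 4617, 3447, 3341 and 1985 in control libraries 1 to 5 (-1.74 ± 0.47, adjusted p = 0.0426). It was called in 2 of the 10 fits with 1 library left out, with an adjusted p up to 0.113. Apoe, the lipid carrier of astrocytes, had the same order with 1149, 1249, 1270, 2928 and 10403 in ECL libraries 1 to 5 and 8843, 25490, 12390, 13480 and 5248 in control libraries 1 to 5, but was not called (-1.95 ± 0.59, adjusted p = 0.0685). The histidine triad gene Hint2 (-1.65 ± 0.44), the respiratory chain gene Cox5a (-1.70 ± 0.38), the mitochondrial ribosome gene Gadd45gip1 (-2.21 ± 0.47) and Yjefn3 (-2.98 ± 0.63) shared it, each with overlap between groups. Hint2 was called in 2 of those 10 fits, Cox5a in 7, Bsg in 8 and Gadd45gip1 and Yjefn3 in 9, and all of them were lost without control replicate 2.

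This order was common among the genes that fell. ECL replicates 4 and 5 both exceeded ECL replicates 1 to 3 for 327 of the 568 genes called lower (57.6%), for 51 of the 439 called higher (11.6%) and for 13.7% of all genes tested, a count that was chosen after the values were seen. The genes called lower had a median GC content of 52.4% and a median exon length of 3.08 kb, against 48.3% and 3.88 kb over all genes and 47.0% and 3.80 kb for the genes called higher. With trends of length and GC between libraries removed, 517 genes were called higher and 580 lower, and 415 and 482 of the original calls remained. Without replicates 1 and 2 of both groups 33 genes were called lower and 150 higher, 27 and 138 of them among the original calls, and 0 of the glycolysis genes. Of single libraries, control replicate 2 counted most, since 152 genes were called lower and 206 higher without it. What set the order of the pools was not tested.

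**Figure D4:**
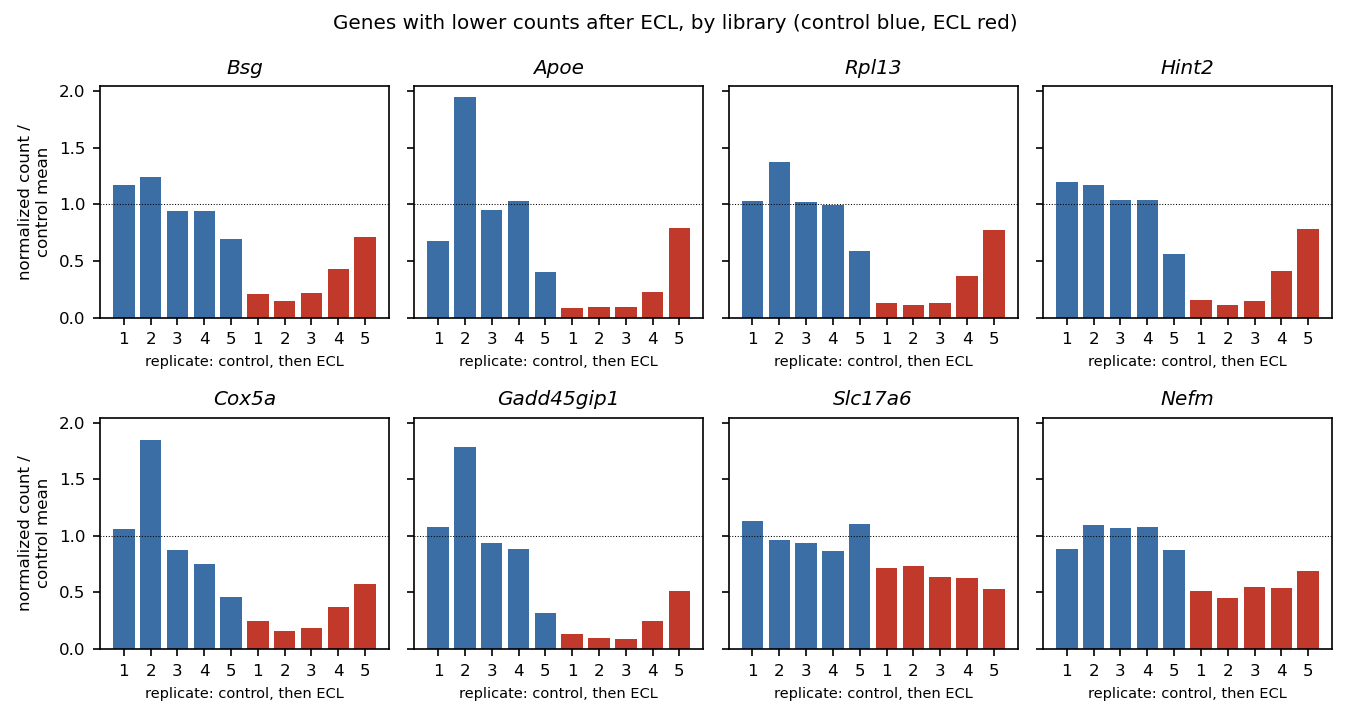
Normalized count of 8 genes in each input library divided by the mean of the 5 controls (dotted line at 1), with controls 1 to 5 in blue and ECL 1 to 5 in red. In Bsg, Apoe, Rpl13, Hint2, Cox5a and Gadd45gip1 the ECL bars increase at replicates 4 and 5 and control 5 is the lowest control, whereas all 5 ECL bars of Slc17a6 and Nefm lie below all their control bars.

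The coIP libraries come from the same 10 lysates, so they are a repeat reading of the same lesions after precipitation and no independent replication. Fitted alone, coIP gave 41 of 18449 genes higher (0.222%) and 17 lower (0.0921%). Of these, 38 of 41 and 16 of 17 were also called in the inputs in the same direction. Ccnb1 changed by 2.73 ± 0.33 in coIP, Top2a by 1.83 ± 0.23, Spp1 by 1.04 ± 0.16, Abca1 by 0.79 ± 0.15 and Nefm by -0.68 ± 0.12, all called. Of the input genes tested in coIP, 424 of 433 that rose and 558 of 560 that fell had the same sign. A test of the difference in lesion effect between inputs and coIP by edgeR called 0 of 19581 genes, with 434 at an unadjusted p under 0.05, and DESeq2 called 0 as well, with 471 at an unadjusted p under 0.05.

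The genes that rose and those that fell were then read in DG and CA3. Of the 439 genes that rose, 437 were tested in DG, 396 of these had the same sign, and 266 were called higher there, which is 60.6% of the input calls and 14.3% of the DG calls. In CA3, 434 were tested, 339 had the same sign (median 0.32), and 10 were called higher, 2.28% of the input calls and 2.98% of the CA3 calls, with 2 called lower. Of the 568 that fell, 567 were tested in DG, 157 had the same sign, 17 were called lower and 28 were called higher. Over all genes of the DG fit 4.31% were called lower and 7.86% higher, so neither count exceeded its share. Without DG ECL replicate 5, 399 of 436 genes that rose had the same sign in DG and 276 were called higher, and 201 of 567 that fell had the same sign, with 25 called lower, 37 called higher and a median of 0.11. In that fit 1252 of 23605 genes were called lower and 1998 higher, so the counts of 25 and 37 were again below the shares of all genes. With all libraries, the median log2 fold change of the genes that fell was 0.20 in DG and 0.44 in CA3, where 85 of 558 had the same sign, 0 were called lower and 128 were called higher. In the fit of CA3 alone 336 of 22340 genes were called higher (1.5%) and 61 lower (0.273%), 1.78% in all. Bsg was an example, with 1.24 ± 0.13 in CA3 (adjusted p = 0.0137) and a difference of inputs minus CA3 of -2.79 ± 0.53 (adjusted p = 0.0033). Apoe changed by 1.56 ± 0.16 in CA3 (adjusted p = 0.0137) and by 0.97 ± 0.36 in DG (adjusted p = 0.0843, and 0.0683 without DG ECL replicate 5). The interaction of inputs and CA3 called 191 of 24254 genes higher in inputs (0.787%) and 1301 lower (5.36%), 6.15% in all. Weighted by expression, the mean GC of genes was 45.5 to 46.1% in CA3 controls and 46.4 to 47.3% in CA3 ECL libraries. In DG it was 44.83 to 45.87% in controls and 45.92 to 47.35% after ECL. In inputs it was 48.6 to 48.8% in controls and 48.3 to 48.6% after ECL. Total counts in CA3 were 14208728 and 16843281 in controls and 20712170 to 34071797 after ECL. GC trends were removed only in inputs, so the part of GC and depth in these contrasts was not tested.

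**Figure D5:**
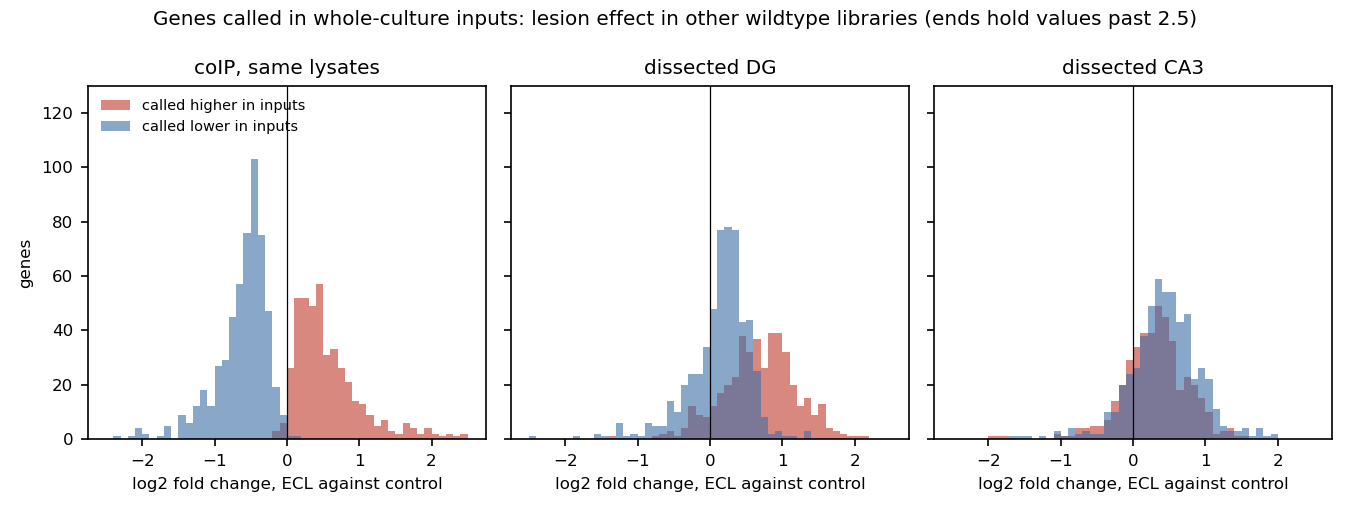
Histograms of the log2 fold change after ECL in coIP, dissected DG and dissected CA3 libraries for the genes called higher (red) and lower (blue) in the whole-culture inputs, in genes per bin of 0.1, with DG ECL replicate 5 included and values past 2.5 in the end bins. Genes that rose in inputs lie mostly to the right in all 3 panels, and genes that fell lie to the left in coIP and mostly to the right in DG (median 0.20) and CA3 (median 0.44).

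Within the lists, the size of the change also differed from DG. Complement genes were lower in effect in inputs than in DG for 5 of 13 tested by the interaction (C1qa, C1qb, C1qc, C4b and Serping1), reactive astrocyte genes for 4 of 17 (Gfap, Serpina3n, Tm4sf1 and Cryab) and phagocytic genes for 3 of 17 (Apoe, Ctsb and Cd63). Without DG ECL replicate 5 these counts were 3, 3 and 2, as C1qa, C1qb, Tm4sf1 and Ctsb were not called. Gfap changed by 1.44 ± 0.14 in DG, with an interaction of -0.93 ± 0.20 (adjusted p = 0.0149), and Serpina3n by 1.56 ± 0.17, with an interaction of -1.18 ± 0.23 (adjusted p = 0.0122). Of the 14 cell cycle genes 0 were called with a higher effect in inputs and 1, Ccnd1, with a lower one (-1.23 ± 0.28, adjusted p = 0.0175). Some dividing-cell genes outside that list were called higher in inputs. They were named by p or size in the inputs or by p in this interaction, a choice that favours such a result, and not all genes so named are given. Ect2, which positions the cleavage furrow, had 270.2, 206, 134, 106 and 185 in ECL libraries 1 to 5 and 27.3, 21.6, 39, 48.1 and 67.7 in control libraries 1 to 5 (2.16 ± 0.31), did not pass in DG (0.17 ± 0.24, adjusted p = 0.635), and differed by 1.99 ± 0.40 (adjusted p = 0.0132). Tpx2 (1.32 ± 0.26), Kif20a (1.35 ± 0.30) and Nuf2 (1.18 ± 0.31) also had a positive interaction that was called, whereas Mki67 (0.36 ± 0.30, adjusted p = 0.543) and Top2a (0.36 ± 0.32, adjusted p = 0.576) were not called. Ccl5 differed by 1.16 ± 0.27 (adjusted p = 0.0204). Nr4a2 was lower in inputs and higher in DG (1.38 ± 0.38, adjusted p = 0.032), with an interaction of -1.93 ± 0.42 (adjusted p = 0.0148). Of the single interactions given here, those of Gfap, Serpina3n, Ccnd1, Ect2, Tpx2, Kif20a, Nuf2, Ccl5 and Nr4a2 were also called without DG ECL replicate 5, and those of Mki67 and Top2a were not.

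Smaller stress lists complete the account. Of 15 antioxidant genes, 3 were called higher and 1 lower (median 0.13). Hmox1, the heme-degrading enzyme, had 1489, 1218, 1099, 1133 and 963 in ECL libraries 1 to 5 and 858, 771, 711, 756 and 760.0 in control libraries 1 to 5. All lesioned pools exceeded all controls (0.61 ± 0.11, adjusted p = 0.00569). Prdx1 (0.30 ± 0.07) and Gpx1 (0.32 ± 0.07), both peroxide-reducing enzymes, rose by less, and Sod2, the mitochondrial superoxide dismutase, was lower (-0.39 ± 0.09, adjusted p = 0.0248). Hmox1 was called with any 1 library left out, Gpx1 in 8 of the 10 fits, Prdx1 in 7 and Sod2 in 5, and Hmox1 was the 1 member called without control replicate 2. Of 12 heat shock genes, 1 was called, the co-chaperone gene Dnajb1 (-0.71 ± 0.18), which was lower in inputs and had a DG value of 0.63 ± 0.20 (adjusted p = 0.0504, and 0.0552 without DG ECL replicate 5).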

How the data were processed

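The authors deposited raw counts of read pairs per gene, 1 file per library. Per the labels and the submitters' processing notes, reads were trimmed with cutadapt 3.5, aligned to mm10 (GRCm38) with STAR 2.7.8a and counted with featureCounts 2.0.1. Counting was unstranded by the study's methods, so reads of overlapping and antisense genes cannot be told apart. Groups were taken from the labels, and libraries are separate pools by their biological replicate labels. Members and gene lists were chosen with earlier results of these data known.

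Here the deposited counts were tested with edgeR 4.0.16 (R 4.3.3, TMM, filterByExpr, quasi-likelihood F test, ECL against control, no covariates), with Benjamini-Hochberg adjustment across every gene in the fit and a call at an adjusted p under 0.05. SE is the log2 fold change over the square root of F. Differences of lesion effects were interaction contrasts. For normalized counts, TMM library sizes were expressed relative to their geometric mean within a library type and each count was divided by them. Single library measures used exact two-sided permutation tests. Genes were named as up to 15 per direction by p, up to 10 by size (mean normalized count of at least 100), up to 3 per direction and interaction, all called list members, markers, Synpo and sex-linked genes, 160 in all, of which 131 were called. Genes not called, and the pathway genes Ccnd1, Pcna, Apoe, Fos and other list members given with values, were chosen with their values known. Alternatives were DESeq2 1.42.0, limma 3.58.1 (voom), RLE factors, other filters, length and GC trends, left-out libraries and a replicate block. Samples with the same number did not vary together (correlations -0.18 to 0.08). Gene coordinates are from the deposited GENCODE M25 annotation, and promoters from RefSeq (GRCm38.p6), matched by symbol. Results for some members of the lists are not reported here.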

Additional observations from a re-analysis of the deposited data

Results flagged for a closer look

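Of 366 groups of 5 libraries checked, for 179 genes and 4 library measures in each group, 26 had 1 library farther from the nearest other than Dixon's 95% limit allows, and chance alone gives about 1 in 20. Control replicate 1 was the outlying library most often. It was high in interneuron and choroid plexus genes, with normalized counts of 1807 for Vip, 5411 for Gad2, 22292 for Sst, 28947 for Npy, 8831 for Ttr and 179 for Folr1, where the nearest controls had 1102, 3945, 12444, 11262, 2145 and 51.6. It was low for Bok (613) and Fibcd1 (215), markers of CA3 and CA1, low for Mki67 (93.3), and high for Cd68 (4617), Abcg1 (5087) and Btg2 (1137). Control replicate 2 was low for Nusap1 (104) and high for Lyz2 (6029) and Junb (117). Control replicate 3 was high for Akap5 (1558) and control replicate 5 low for Hint2 (536). ECL replicate 1 was high for Top2a (1269), Cdk1 (611) and Rrm2 (1340). ECL replicate 2 was low for Fxyd6 (2284) and high for Gabrd (112), and ECL replicate 4 was low for Kcnj10 (2315). ECL replicate 5 was high for Yjefn3 (120), Hes6 (145) and Apoe (10403), where the nearest lesioned pools had 34.0, 69.2 and 2928.

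The genes below are the 3 of smallest p in each direction in the edgeR interaction tests of inputs against DG and against CA3, so that they passed follows from how they were chosen. Inputs minus DG, it was higher for the dividing-cell genes Ect2 (1.99 on the log2 scale, adjusted p = 0.0132), Hmgb2 (1.02, adjusted p = 0.00515) and Ncapg2 (0.82, adjusted p = 0.0132). It was lower for Fmnl1 (-1.62, adjusted p = 0.000567), Gpx1 (-1.03, adjusted p = 0.00372) and Add3 (-1.03, adjusted p = 0.00468). All 6 were also called without DG ECL replicate 5, with adjusted p from 0.000343 to 0.0134. Inputs minus CA3, it was higher for Hrk (1.34, adjusted p = 0.00173), Dsc3 (2.55, adjusted p = 0.00193) and Spef2 (1.57, adjusted p = 0.00285), and lower for Rhbdd2 (-2.34, adjusted p = 7.71e-05), Eif5a (-1.82, adjusted p = 7.71e-05) and Fxyd6 (-1.82, adjusted p = 0.000233).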

How the results depend on the processing

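No call reversed in any fit run. Of the 131 called genes named by rule, 131 were called by DESeq2, 130 with RLE size factors, 128 with length and GC trends removed, 82 to 122 with 1 input library left out and 64 without replicates 1 and 2 of both groups. DESeq2 called 1677 genes in inputs (748 higher, 929 lower), 1916 lower in DG, 1312 in CA3 (981 higher, 331 lower), 346 in coIP (156 higher, 190 lower), 529 higher in inputs against DG and 386 higher against CA3. RLE size factors gave 258 in CA3 (212 higher) and 608 in inputs against DG (431 lower). Voom with quality weights gave 288 higher against DG and 342 higher against CA3, and no filter on low counts gave 2253 against CA3 (369 higher). Libraries with Y-linked and without Xist counts, chosen after seeing the data, gave 493 (168 higher, 325 lower). The replicate block left 335 higher and 338 lower, and the numbers were not taken as a pairing, since over all genes same-numbered libraries did not deviate together, although myelin genes were low in replicates 1 and 2 of both groups. With the lysate as block, 0 genes differed between inputs and coIP by edgeR (752 at an unadjusted p under 0.05).

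With libraries left out, inputs gave 183 to 1070 calls (150 to 431 higher, 33 to 703 lower), the lowest without replicates 1 and 2 of both groups, and of single libraries without control replicate 2 (358, with 206 higher and 152 lower). Inputs against DG gave 227 to 1328 (29 to 184 higher, 159 to 1163 lower), and inputs against CA3 538 to 1621 (60 to 203 higher, 478 to 1456 lower). Leaving out DG ECL replicate 5, whose granule cell and CA3 markers were near those of CA3 libraries, gave 3250 calls in DG (1998 higher, 1252 lower) and 807 in inputs against DG (184 higher, 623 lower), and DG libraries without Y-linked counts gave 2210 (1632 higher, 578 lower). What caused these shifts was not tested. Depth was similar across inputs, and what depth and the spread of 5 pools per group each add to the imprecision was not tested. Genes with few counts were left out of the tests.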
